A study of Mus musculus with 9 samples.

Results

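The 6 transcription factors examined here belong to the trophoblast lineage: Gata2, Gata3, Tfap2a, Tfap2c, Elf5 and Hand1. They were followed in mouse embryonic stem cells through auxin treatment and washout, meant to deplete and return a Polycomb subunit. They were chosen by name, as 6 of the 48440 genes in the count tables, and all 6 were found by symbol. RNA from J1 stem cells of the genotype Suz12-AID was sequenced in 3 groups of 3 biological replicates, 9 libraries in all. In this line Suz12 is fused to an auxin-inducible degron, so that added auxin leads to loss of the protein, and every group carries the fusion, the controls included. Mock cells were the controls, and Auxin cells received 50 µM auxin (indole-3-acetic acid) for 96 h. Reintroduction cells received the same 50 µM auxin for 96 h and then had it washed out for 4.5 h. All were grown on gelatin without feeder cells named, in serum medium with LIF and the 2i inhibitors PD0325901 and CHIR99021. Whether the line is a single clone, and what Mock cells received in place of auxin, is not given in the sources used here.

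The trophoblast forms the outer layer of the mouse blastocyst and later most of the fetal part of the placenta. Embryonic stem cells derive from the inner cell mass and normally keep the trophoblast programme off. GATA factors (Gata2, Gata3) bind GATA motifs and act in trophectoderm and trophoblast giant cells, and the AP-2 factor Tfap2c is needed in the trophectoderm lineage. Its relative Tfap2a is also a regulator of surface ectoderm and neural crest. The ETS factor Elf5 maintains trophoblast stem cells, and its promoter is known to be methylated in embryonic stem cells. The bHLH factor Hand1 drives the formation of giant cells and is also used in heart and lateral mesoderm. Polycomb repressive complex 2 (PRC2), of which Suz12 is a core subunit, trimethylates lysine 27 of histone H3, mostly at CpG-rich promoters of silent developmental genes.

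Because PRC2 is known to occupy CpG-rich promoters, promoter sequences are shown for the members for which a stretch outside their own exons was at hand. RefSeq promoter windows (GRCm38.p6) cover 4 of the 6 members, Gata2, Gata3 and Tfap2a among those that rose and Elf5 as the one near the limit of detection. The sequences run 5′ to 3′ on the strand of the gene up to a transcript start, and capitals mark CpG.
Gata2 promoter, chr6:88193641-88193890, plus strand: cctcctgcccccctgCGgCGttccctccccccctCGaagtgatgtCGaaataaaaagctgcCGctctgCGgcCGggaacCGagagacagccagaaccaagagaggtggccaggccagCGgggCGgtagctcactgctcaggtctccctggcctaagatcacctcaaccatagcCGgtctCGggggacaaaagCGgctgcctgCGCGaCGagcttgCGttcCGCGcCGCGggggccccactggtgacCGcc
Gata3 promoter, chr2:9878601-9878850, minus strand: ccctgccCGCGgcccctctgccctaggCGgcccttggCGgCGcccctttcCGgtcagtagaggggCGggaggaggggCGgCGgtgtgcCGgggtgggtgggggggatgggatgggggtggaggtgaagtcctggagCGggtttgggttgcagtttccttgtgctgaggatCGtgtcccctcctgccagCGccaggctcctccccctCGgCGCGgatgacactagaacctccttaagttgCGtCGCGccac
Tfap2a promoter, chr13:40734921-40735170, minus strand: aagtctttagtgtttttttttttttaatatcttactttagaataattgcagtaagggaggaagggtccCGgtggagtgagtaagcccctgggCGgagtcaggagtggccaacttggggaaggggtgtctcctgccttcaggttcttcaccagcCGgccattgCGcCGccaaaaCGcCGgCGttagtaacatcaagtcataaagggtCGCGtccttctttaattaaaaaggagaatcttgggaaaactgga
Elf5 promoter, chr2:103423818-103424061, plus strand: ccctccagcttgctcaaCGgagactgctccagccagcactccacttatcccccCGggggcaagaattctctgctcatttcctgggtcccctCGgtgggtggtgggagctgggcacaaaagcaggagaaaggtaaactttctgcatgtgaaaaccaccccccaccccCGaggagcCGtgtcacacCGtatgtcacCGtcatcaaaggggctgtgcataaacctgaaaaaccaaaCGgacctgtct
The Gata2 stretch ends just before the first base of the counted gene model, and the Tfap2a stretch lies upstream of it. The Gata3 stretch lies between exons of the longer counted Gata3 model and within an exon of the antisense gene Gm13256, and most of the Tfap2a stretch lies in the antisense gene Gm26688. The Elf5 stretch is that before the second of its listed starts and leaves out 6 bases that belong to an Elf5 exon, so it has 244 bases.

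The observed over expected CpG ratio compares the number of CpG with what the C and G content would give. Over the 250 bases before a start it was 0.785 at the first Gata2 start (22 CpG), 0.741 at the second (24 CpG), 0.633 at Gata3 (19 CpG), and 0.729 and 0.563 at the 2 Tfap2a starts (10 CpG each). It was 0.0814 at the first Elf5 start (2 CpG) and 0.402 at the second (8 CpG). The median over 32851 promoter windows was 0.373 with 6 CpG, and 34% of windows reached 0.6. The Gata2, Gata3 and Tfap2a windows thus lay above the median, with 63.6% to 79.8% of windows having a lower ratio. The second Tfap2a start did not reach 0.6, and 62.2% of windows held fewer CpG than either Tfap2a window. The first Elf5 window lay in the CpG-poor part, with 12.3% of windows below it. Tfap2c and Hand1 had no window, and a link between CpG content and the changes was not tested. The second Elf5 window, whose sequence is printed above, lay near the median, with 52.3% of windows below it.

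**Figure D1:**
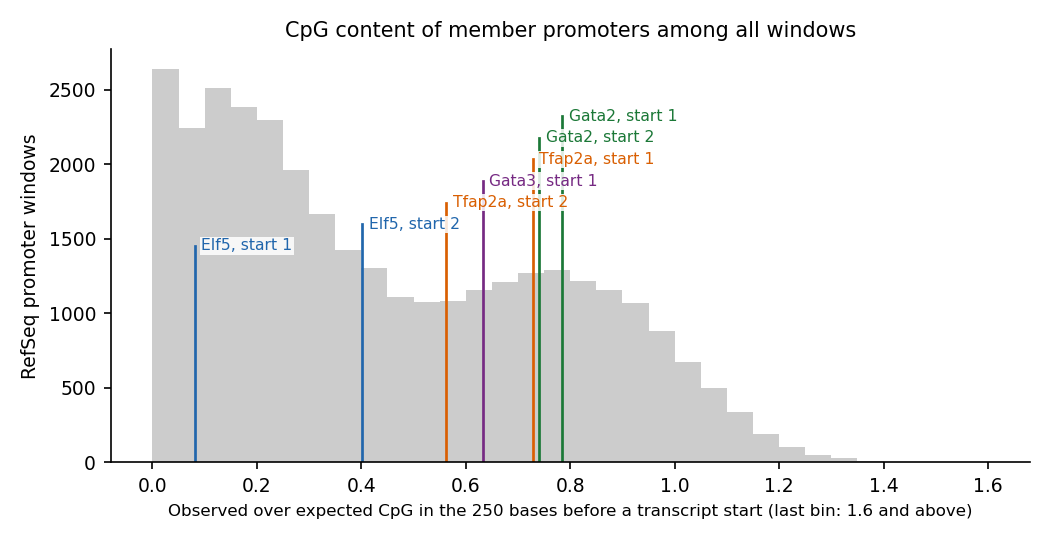
Histogram of the observed over expected CpG ratio (x axis) in the 250 bases before a transcript start for all RefSeq promoter windows (y axis, number of windows), with each listed start of 4 members as a vertical line whose height has no meaning. The 5 lines of Gata2, Gata3 and Tfap2a stand between 0.563 and 0.785, to the right of both Elf5 lines.

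Motifs were searched on both strands of these windows. The palindromic AP-2 motif GCCNNNGGC matched at 3 places at Gata3 and at 1 at the second Gata2 start (13.7% of all windows hold it). The TEAD motif GGAATG matched once at the second Gata2 start and once at the first Elf5 start (12.6% of windows). The GATA motif AGATAA (9.99% of windows) and the TATA motif TATAAA (12.4%) had no match in any of the 7 windows. None of the 4 motifs contains another.

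The libraries held between 44341283 counts (Reintroduction replicate 2) and 113931419 (Mock replicate 1), with each mate of a read pair counted. Of 48440 genes, 20838 passed the filter on low counts and were tested. Auxin replicate 2 stood apart from the other Auxin libraries in the trend of its values with gene length. For each doubling of exon length the log2 level changed by 0.013 in that library against 0.15 in both other Auxin libraries, by -0.25 to -0.17 in Mock and by 0.083 to 0.097 in Reintroduction. The larger split was by group, negative in all Mock libraries and positive in all Auxin and Reintroduction libraries. This trend thus goes along with every comparison against Mock. The degron acts on the protein, which was not analysed here; Suz12 mRNA stood at 125 to 137 CPM (counts scaled to a common library size) in Mock, 121 to 152 in Auxin and 164 to 173 in Reintroduction, and so does not check the labels. Pluripotent stem cell markers were present in every library, all 10 of them, with a summed level of 6297 to 6488 CPM in Mock, 7779 to 8383 in Auxin and 6003 to 6059 in Reintroduction. Single markers moved in both directions by the test described below. In Auxin against Mock 7 rose, 2 fell and 1 was not called. Those that fell were Pou5f1 (log2 fold change -0.53) and Dppa5a (-1.16). In Reintroduction against Auxin 1 rose, 8 fell and 1 was not called. Against Mock, Reintroduction had 2 higher, 5 lower and 3 not called, with Pou5f1 at -0.55. Shares of all genes are given below.

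Auxin was set against Mock to see changes under auxin, and 5 of the 6 members rose: Gata2, Gata3, Tfap2a, Tfap2c and Hand1. The rises ran from 1.92-fold in Gata2 to 4.71-fold in Hand1, and Elf5 was too low to test. Hand1 and Gata3, with the largest folds, were below the filter's level in Mock, so a difference from Mock was built into their being tested. Every group carries the degron, so effects of auxin itself and of losing Suz12 cannot be told apart here. Reintroduction was set against Auxin to see early movement after auxin removal. There Tfap2c was the 1 member called, and it fell 1.93-fold. The washout itself, the further 4.5 h, the removal of auxin and any return of Suz12 cannot be told apart in that comparison. In Reintroduction against Mock the same 5 members were above Mock. The mitochondrial share of counts was also higher in all Reintroduction libraries (4.58% to 4.80%) than in those of Mock and Auxin (3.79% to 4.0%), and its part in these results was not tested. Calls were made at an adjusted p under 0.05 in edgeR's quasi-likelihood test with Benjamini-Hochberg adjustment over all 20838 genes, and every adjusted p below comes from that test unless another is named. The fit held all 9 libraries.

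These counts stand beside very broad changes. Of all tested genes, 73.2% were called in Auxin against Mock (38.4% higher and 34.8% lower), 50.9% in Reintroduction against Auxin (25.5% higher and 25.5% lower) and 68.1% in Reintroduction against Mock (34.7% higher and 33.4% lower). With a fold of at least 2 required as well, 19.8% were called higher in the first comparison, 6.82% lower in the second and 15.0% higher in the third. Groups that do not overlap were also common: the first group lay wholly above the second in 38.4%, 28.8% and 38.2% of genes in the 3 comparisons, and wholly below it in 29.4% in Reintroduction against Auxin. The median log2 fold change of the 5 tested members was 1.67, -0.61 and 1.44 in the 3 comparisons, in that order, and that of all tested genes was 0.05, 0.0027 and 0.026, both given as a description. Gata3 and Hand1 lay below the filter's level of about 0.131 CPM in Mock and passed it through the Auxin and Reintroduction libraries, so a difference from Mock was built into their passing. The 3 comparisons share groups and are not independent. In these bulk libraries, more cells expressing a factor and more of its RNA per cell cannot be told apart.

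**Figure D2:**
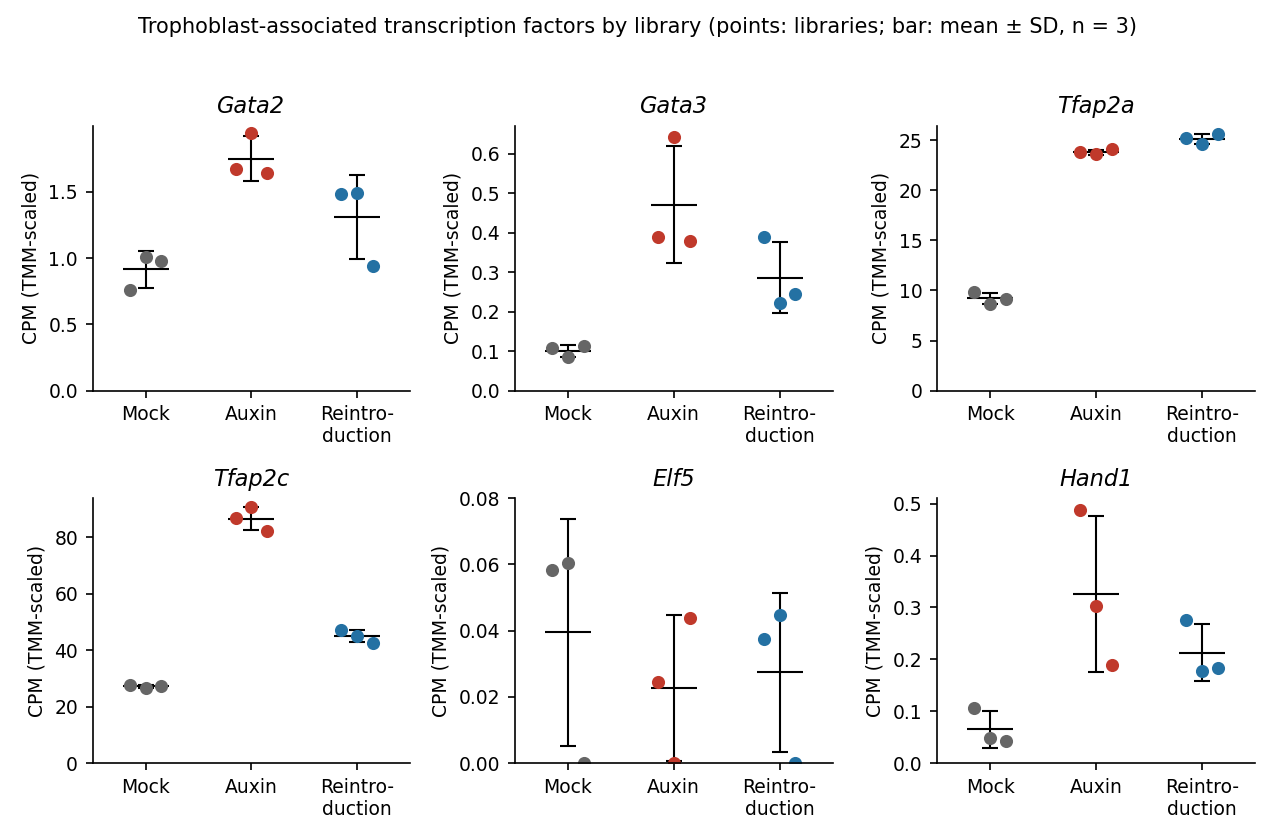
TMM-scaled CPM (y axis, linear from 0, each panel with its own scale) of the 6 members in Mock, Auxin and Reintroduction, with 1 point per library and a bar for the mean ± SD (n = 3). In 5 panels all Auxin points lie above all Mock points; in the Elf5 panel every point is at or below 0.0604 CPM.

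The AP-2 factors were the abundant members. Tfap2c (ENSMUSG00000028640.11; mm10 chr2:172549593-172558622, plus strand), the AP-2 factor of the trophectoderm, had 27.7, 26.5 and 27.5 CPM in Mock replicates 1 to 3. It had 86.8, 90.7 and 82.4 CPM in Auxin and 47.2, 45.1 and 42.7 CPM in Reintroduction. The 3 groups did not overlap, with Auxin highest, Reintroduction between and Mock lowest. The mean rose from 27.2 ± 0.651 to 86.6 ± 4.13 CPM (SD, n = 3) in Auxin against Mock, a log2 fold change of 1.67 (standard error 0.0587, adjusted p = 1.05e-09). It then fell by 0.95 on the log2 scale in Reintroduction against Auxin (standard error 0.0577, adjusted p = 2.66e-07) and stayed 0.72 above Mock (standard error 0.0581, adjusted p = 1.10e-06). Its counts ran from 1968 to 7114 per library.

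Tfap2a (ENSMUSG00000021359.15; mm10 chr13:40715675-40733823, minus strand), its relative in surface ectoderm and neural crest, had 9.82, 8.69 and 9.16 CPM in Mock. In Auxin it had 23.8, 23.6 and 24.1 CPM, and in Reintroduction 25.2, 24.6 and 25.6 CPM. All 6 libraries of Auxin and Reintroduction were above the 3 Mock libraries, and the Reintroduction libraries were slightly above those of Auxin. The mean rose from 9.23 ± 0.568 to 23.8 ± 0.234 CPM (SD, n = 3) in Auxin against Mock, a log2 fold change of 1.37 (standard error 0.0600, adjusted p = 4.73e-09). Between Auxin and Reintroduction it moved by 0.076 (standard error 0.0580, 95% interval -0.052 to 0.20, adjusted p = 0.303) and did not pass the threshold. With libraries scaled to total counts alone it was -0.004. Against Mock, Reintroduction was 1.44 higher (standard error 0.0602, adjusted p = 1.20e-08). Tfap2a shares 111 bp of exon, 3.42% of its exon length, with the antisense gene Gm26688, whose own count was at most 23 in any library. Counting did not use strand.

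The ratio of the AP-2 pair was taken within each library, where differences in scaling cancel. In these ratios, counts per kilobase of exon were 2.49 to 2.69 times higher for Tfap2c than for Tfap2a in Mock, 3.01 to 3.38 times in Auxin and 1.47 to 1.65 times in Reintroduction. The 3 ranges do not overlap, and Reintroduction was lower than both other groups. The mean log2 ratio was 1.38 ± 0.06 in Mock, 1.68 ± 0.083 in Auxin and 0.66 ± 0.089 in Reintroduction (SD, n = 3). Each difference between groups had an exact permutation p of 0.100, two-sided, the smallest that 3 against 3 libraries can give (0.12 after Benjamini-Hochberg adjustment over the 6 ratio tests made), so this design could not pass 0.05.

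**Figure D3:**
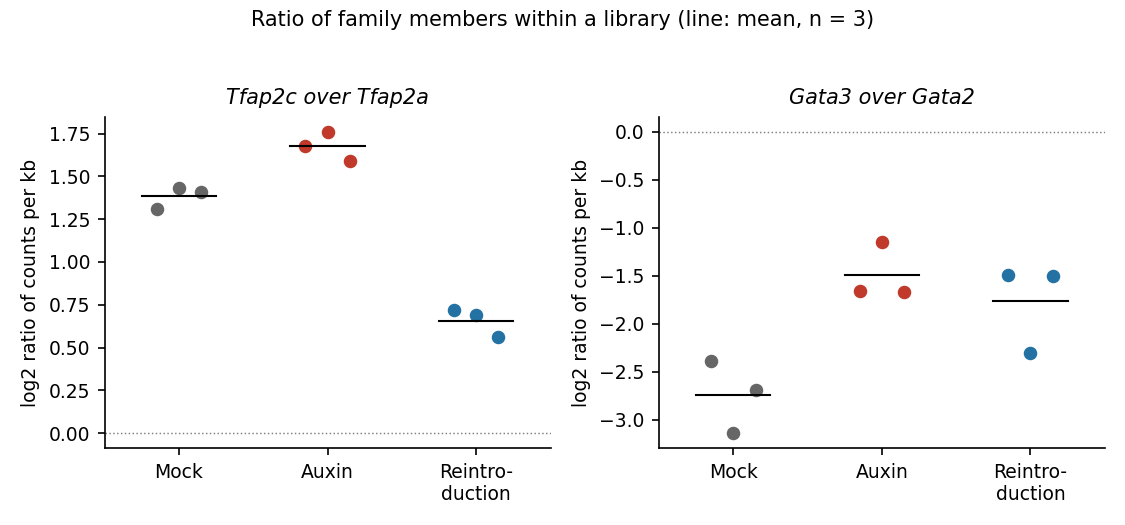
Log2 ratio of counts per kilobase of exon (y axis) for Tfap2c over Tfap2a (left) and Gata3 over Gata2 (right) within each library, with 1 point per library and a line for the mean of 3. Reintroduction is lowest in the left panel, with a mean of 0.66, and Mock is lowest in the right panel, with a mean of -2.74.

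The GATA factors were expressed at lower levels. Gata2 (ENSMUSG00000015053.14; mm10 chr6:88193891-88207032, plus strand), a GATA factor of trophoblast and blood progenitors, had 0.757, 1.01 and 0.979 CPM in Mock replicates 1 to 3. It had 1.67, 1.94 and 1.64 CPM in Auxin and 1.48, 1.49 and 0.944 CPM in Reintroduction. All Auxin libraries were above all others, and Reintroduction replicate 3 fell within the Mock range while the other 2 libraries lay above it. The mean was 0.917 ± 0.139 CPM in Mock and 1.75 ± 0.167 CPM in Auxin (SD, n = 3), a log2 fold change of 0.94 (standard error 0.198, adjusted p = 0.00120). Reintroduction against Auxin gave -0.44 (standard error 0.196, 95% interval -0.87 to -0.0053, adjusted p = 0.0851), and it was -0.25 without Reintroduction replicate 3. The call against Mock in Reintroduction was weak, at 0.50 (standard error 0.205, adjusted p = 0.0482). It was lost under 11 of 16 other settings, such as DESeq2 size factors (0.48, adjusted p = 0.0554), the replicate block (0.51, adjusted p = 0.0504) and the removal of Mock replicate 1 (0.35, adjusted p = 0.198) or Reintroduction replicate 1 (0.36, adjusted p = 0.205). Adjusted p over these settings ran from 0.00817 to 0.205.

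Gata3 (ENSMUSG00000015619.10; mm10 chr2:9857078-9890034, minus strand), a factor of the trophectoderm and of T cells, had 11, 7 and 8 counts in Mock, or 0.107, 0.0845 and 0.112 CPM. It had 32, 49 and 26 counts in Auxin, or 0.390, 0.643 and 0.380 CPM, and 31, 10 and 20 counts in Reintroduction, or 0.389, 0.223 and 0.245 CPM. All Auxin and Reintroduction libraries were above all Mock libraries, Auxin replicate 2 was the highest, and Reintroduction replicate 1 reached the Auxin range. In Auxin against Mock its log2 fold change was 2.20 (standard error 0.361, adjusted p = 1.89e-04). Without Auxin replicate 2 it was 1.91 (adjusted p = 6.23e-04). In Reintroduction against Auxin it was -0.69 (standard error 0.322, 95% interval -1.40 to 0.018, adjusted p = 0.0963). That value was -0.42 (adjusted p = 0.366) without Auxin replicate 2 and passed the threshold at -1.0 (adjusted p = 0.0495) without Reintroduction replicate 1. Against Mock, Reintroduction was 1.51 higher (standard error 0.383, adjusted p = 0.00453). Both differences from Mock carry the limit on the filter given above. Gata3 shares 77 bp of exon with 9230102O04Rik on the same strand and 155 bp with the antisense gene Gm13256, and each of these held at most 2 counts in any library.

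The ratio of the GATA pair was taken in the same way. Per kilobase of exon, Gata3 reached 0.113 to 0.191 of the Gata2 count in Mock, 0.315 to 0.449 in Auxin and 0.203 to 0.356 in Reintroduction. Mock lay below both other groups, which overlapped each other. Log2 ratios averaged -2.74 ± 0.38 in Mock, -1.49 ± 0.29 in Auxin and -1.77 ± 0.47 in Reintroduction (SD, n = 3). The difference had an exact permutation p of 0.100 in both comparisons with Mock (adjusted p = 0.12, two-sided) and of 0.60 between Reintroduction and Auxin (adjusted p = 0.60).

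Hand1 (ENSMUSG00000037335.13; mm10 chr11:57828705-57832818, minus strand), the bHLH factor of giant cells and lateral mesoderm, had 11, 4 and 3 counts in Mock, or 0.107, 0.0483 and 0.0420 CPM. It had 40, 23 and 13 counts in Auxin, or 0.488, 0.302 and 0.190 CPM, and 22, 8 and 15 counts in Reintroduction, or 0.276, 0.178 and 0.184 CPM. All Auxin and Reintroduction libraries were above Mock, the Auxin libraries were widely spread, and Auxin and Reintroduction overlapped. In Auxin against Mock its log2 fold change was 2.24 (standard error 0.478, adjusted p = 0.00133). In Reintroduction against Auxin it was -0.61 (standard error 0.419, 95% interval -1.53 to 0.32, adjusted p = 0.253), and -0.20 without Auxin replicate 1. Against Mock, Reintroduction was 1.63 higher (standard error 0.509, adjusted p = 0.0146). That call was lost without Mock replicate 2 (1.42, adjusted p = 0.0550), Mock replicate 3 (1.40, adjusted p = 0.0527) or Reintroduction replicate 1 (1.36, adjusted p = 0.0711). As for Gata3, both differences from Mock carry the limit on the filter given above.

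Elf5 (ENSMUSG00000027186.14; mm10 chr2:103411688-103450989, plus strand), the ETS factor of trophoblast stem cells, was at the edge of detection in all 3 groups. It had 6, 5 and 0 counts in the Mock libraries, 2, 0 and 3 in those of Auxin, and 3, 2 and 0 after washout. Each group held 1 library at 0, and the groups overlapped. The sums of 11, 5 and 5 counts gave a depth-scaled ratio of 0.516 in Auxin against Mock (exact 95% interval 0.141 to 1.61) and of 1.10 in Reintroduction against Auxin (0.253 to 4.78). In Reintroduction against Mock the ratio was 0.567 (0.155 to 1.77). These intervals cover counting error only, and mates of a pair are not independent. No difference was detectable at this depth. With the filter on low counts left out, Auxin against Mock gave a log2 fold change of -0.84 (standard error 1.24, adjusted p = 0.610).

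**Figure D4:**
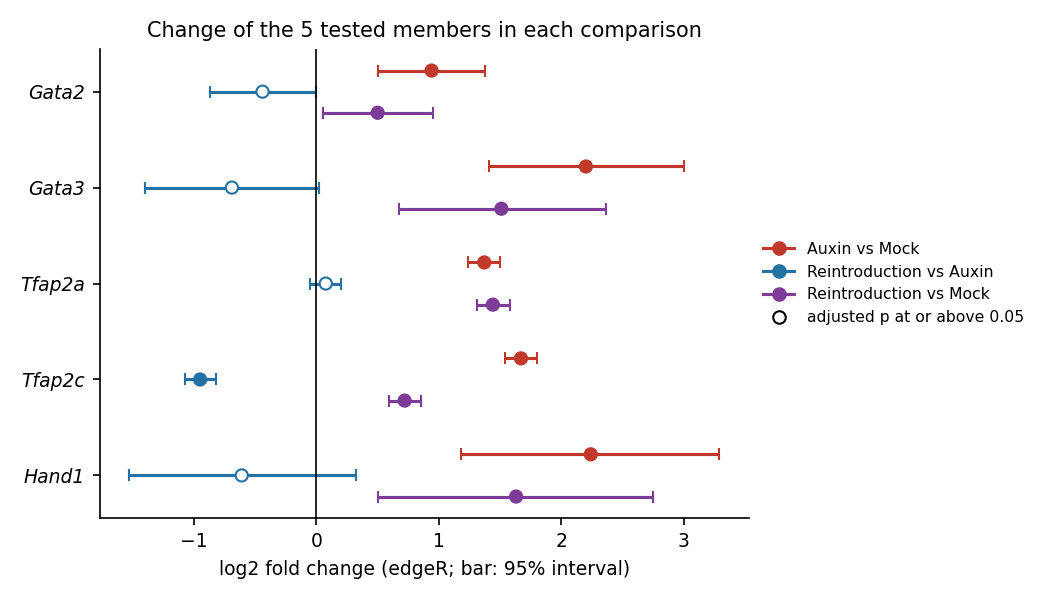
Log2 fold change (x axis) with its 95% interval for the 5 tested members (y axis) in 3 comparisons, from edgeR, with open circles where the adjusted p was at or above 0.05. In Reintroduction against Auxin (blue) Tfap2c is the 1 filled circle, at -0.95.

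Levels between genes can be set side by side only per length. As mean CPM per kilobase of exon, the order was the same in each group: Tfap2c, Tfap2a, Gata2, Hand1, Gata3, Elf5. The Mock values were 7.40, 2.84, 0.170, 0.0329, 0.0254 and 0.00673. The Auxin values were 23.5, 7.35, 0.324, 0.163, 0.118 and 0.00387, and those of Reintroduction 12.2, 7.75, 0.242, 0.107, 0.0718 and 0.00466. Hand1 and Gata3 overlapped in every group and did not differ beyond their spread, while the libraries of all other neighbours in the order were separate.

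Because libraries differed in their trend with gene length, the members were also tested with that trend removed from each library. All 5 kept their call in Auxin against Mock then and with the trends of length and GC content both removed. In Reintroduction against Mock, Gata2 lost its call under both, at 0.32 (adjusted p = 0.195) and 0.49 (adjusted p = 0.0584), and the other 4 kept theirs. Over all alternatives the log2 fold change in Auxin against Mock ran from 0.76 to 1.15 for Gata2, 1.91 to 2.41 for Gata3, 1.31 to 1.58 for Tfap2a, 1.63 to 1.88 for Tfap2c and 1.82 to 2.80 for Hand1. Without Auxin replicate 2 the values were 0.86, 1.91, 1.37, 1.63 and 2.29, in that order, and all 5 were called. For Tfap2c in Reintroduction against Auxin the value without that library was -0.93 (adjusted p = 2.14e-09).

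Among the close relatives of the members, the endoderm factor Gata4 rose with auxin and fell after washout. It had 1.70 ± 0.222 CPM in Mock, 7.02 ± 0.381 in Auxin and 3.57 ± 0.103 in Reintroduction (SD, n = 3). Its log2 fold change was 2.05 in Auxin against Mock (adjusted p = 1.74e-08), -0.97 in Reintroduction against Auxin (adjusted p = 1.50e-05) and 1.08 in Reintroduction against Mock (adjusted p = 6.72e-06). Gata6, its partner in primitive endoderm, rose from 0.167 ± 0.0223 to 0.420 ± 0.0794 CPM (1.32, adjusted p = 0.00325). After washout it fell to 0.0860 ± 0.0433 CPM (-2.38, adjusted p = 3.38e-04), below Mock at -1.06 (adjusted p = 0.0409), a call that was lost under 13 of 15 alternatives. Gata1, the erythroid factor, had values of -0.14, 0.35 and 0.21 in the 3 comparisons and was called in none of them. Gata5 had 0 counts in all 9 libraries.

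The other AP-2 genes were at low levels. Tfap2e summed to 52 counts in Mock, 22 in Auxin and 0 in Reintroduction, with log2 -1.01 in Auxin against Mock (adjusted p = 0.0702). Set against a floor of 3 counts over the group, it was at least 6.67-fold lower in Reintroduction than in Auxin (adjusted p = 0.00244) and at least 13.9-fold lower than in Mock (adjusted p = 2.38e-04). Tfap2b and Tfap2d summed to at most 5 counts in any group and were not tested. In the ELF branch of ETS factors, 4 of 5 relatives of Elf5 rose in Auxin against Mock: Elf1 by 0.77, Elf2 by 0.72, the epithelial factor Elf3 by 1.18 and Elf4 by 0.52 on the log2 scale (adjusted p = 5.11e-05, 1.46e-07, 1.68e-07 and 1.01e-05). Over 16 alternatives the values of Elf1 to Elf4 ran from 0.63 to 0.98, 0.24 to 0.93, 1.09 to 1.44 and 0.27 to 0.73, and no call was lost. Of all tested genes, 38.4% were called higher in that comparison. Ehf, the epithelial relative, summed to 37 counts in Mock, 0 in Auxin and 12 in Reintroduction. It was at least 10.9-fold lower in Auxin than in Mock (adjusted p = 8.20e-04) and at least 4.40-fold higher in Reintroduction than in Auxin (adjusted p = 0.0134). Tfap2e and Ehf passed the filter on low counts only through libraries outside their group at 0. A difference from that group was thus built into their passing. Hand2, the relative of Hand1, was not called in any comparison, at -0.62, 1.05 and 0.43.

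Other regulators of the trophoblast moved in both directions. Of 21 listed, 18 were tested; in Auxin against Mock 9 rose, 7 fell and 2 were not called, with a median log2 fold change of 0.22. After washout, in Reintroduction against Auxin, 6 rose, 6 fell and 6 were not called (median 0.062), and against Mock 11 were higher, 6 lower and 1 not called (median 0.27). These counts stand beside the shares of all genes given above. Elf3 is also among the relatives of Elf5 counted above, and Ascl2 is also in the list of placental genes below.

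Cdx2, the homeobox factor that sets up the trophectoderm, fell with auxin and rose after washout. It had 193, 116 and 130 counts in the Mock libraries, 2, 17 and 0 in those of Auxin, and 61, 42 and 53 after washout. All Auxin libraries were below all Reintroduction libraries, which were below all Mock libraries, and Auxin replicate 2 held most of the Auxin counts. The log2 fold change was -4.32 in Auxin against Mock (standard error 0.542, adjusted p = 2.27e-05) and 3.18 in Reintroduction against Auxin (standard error 0.591, adjusted p = 9.96e-04). Without Auxin replicate 2 these were -6.84 (adjusted p = 4.70e-09) and 5.67 (adjusted p = 6.23e-07). In Reintroduction against Mock it was -1.14 (adjusted p = 0.0244), a call lost under 6 of 16 alternatives.

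Eomes, the T-box factor of trophoblast stem cells, also fell with auxin and then rose past Mock. It had 35.4 ± 0.781 CPM in Mock, 25.6 ± 1.14 in Auxin and 66.9 ± 1.62 in Reintroduction (SD, n = 3). Its log2 fold change was -0.46 in Auxin against Mock (adjusted p = 1.01e-05), 1.38 in Reintroduction against Auxin (adjusted p = 8.91e-09) and 0.92 in Reintroduction against Mock (adjusted p = 9.76e-08). Tead4, the TEAD factor upstream of Cdx2, rose by 0.61 in Auxin against Mock (adjusted p = 3.32e-06), and Ets2, an ETS factor of trophoblast maintenance, by 0.41 (adjusted p = 1.27e-04). Against Auxin, Reintroduction had them at 0.14 and -0.017 (adjusted p = 0.0752 and 0.845).

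The 4 regulators with the smallest p-values in Auxin against Mock were Klf5, Bmp4, Sox2 and Elf3. Klf5, a Krüppel-like factor of both pluripotent cells and trophectoderm, went from 55.2 ± 2.12 CPM in Mock to 169 ± 11.6 in Auxin and back to 66.1 ± 1.55 in Reintroduction (SD, n = 3). Its log2 fold change was 1.61 (adjusted p = 1.68e-09) and then -1.35 (adjusted p = 2.46e-08). Bmp4, a ligand made by the epiblast side that acts on the trophoblast, fell by 1.24 (adjusted p = 5.48e-09) and then rose by 0.85 (adjusted p = 4.29e-07). Sox2, shared by pluripotent and trophoblast stem cells, rose by 1.00 (adjusted p = 8.00e-09) and then fell by 0.73 (adjusted p = 3.91e-07). Elf3 was at 32.3 ± 1.74, 73.1 ± 7.60 and 45.9 ± 3.07 CPM in the 3 groups. These comparisons share the Auxin libraries.

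Of 27 genes of trophoblast differentiation and placenta, 15 were tested. In Auxin against Mock 7 rose, 4 fell and 4 were not called (median log2 fold change 0.58). After washout, in Reintroduction against Auxin, 7 rose, 4 fell and 4 were not called (median 0.50), and against Mock 7 were higher, 2 lower and 6 not called (median 0.37). Of all tested genes, 38.4% were called higher and 34.8% lower in Auxin against Mock, and 25.5% each way in Reintroduction against Auxin. The trophectoderm keratins Krt18 and Krt8 rose in both steps. Krt18 had 3.75 ± 0.585, 13.4 ± 0.927 and 21.6 ± 0.732 CPM in Mock, Auxin and Reintroduction, and Krt8 had 11.9 ± 0.750, 22.8 ± 2.06 and 40.9 ± 1.26 CPM (SD, n = 3). Log2 fold changes of Krt18 were 1.84 (adjusted p = 3.54e-08) and 0.69 (adjusted p = 1.44e-04), and those of Krt8 0.93 (adjusted p = 5.80e-07) and 0.84 (adjusted p = 3.84e-06).

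Rhox6, a homeobox gene of placenta and germ line, and Peg10, an imprinted gene needed for the placenta, also rose in both steps. Rhox6 had log2 fold changes of 1.55 (adjusted p = 5.95e-07) and 0.50 (adjusted p = 0.00436), and Peg10 of 0.76 (adjusted p = 1.64e-06) and 1.06 (adjusted p = 4.80e-07). Of the markers of mature trophoblast, 7 were at 0. Tpbpa of the spongiotrophoblast, the placental hormone genes Prl3d1, Prl3b1, Prl2c2 and Prl4a1, and the placental cathepsins Ctsq and Ctsj had 0 counts in all 9 libraries. Others had low counts: the syncytin Syna summed to 36, 14 and 37 counts in Mock, Auxin and Reintroduction and was called in neither step, Synb to 9, 4 and 4, and the prolactin gene Prl8a9 to 2, 3 and 5. Genes with near-identical copies, as in the prolactin and cathepsin clusters, can lose reads that map to several places.

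**Figure D5:**
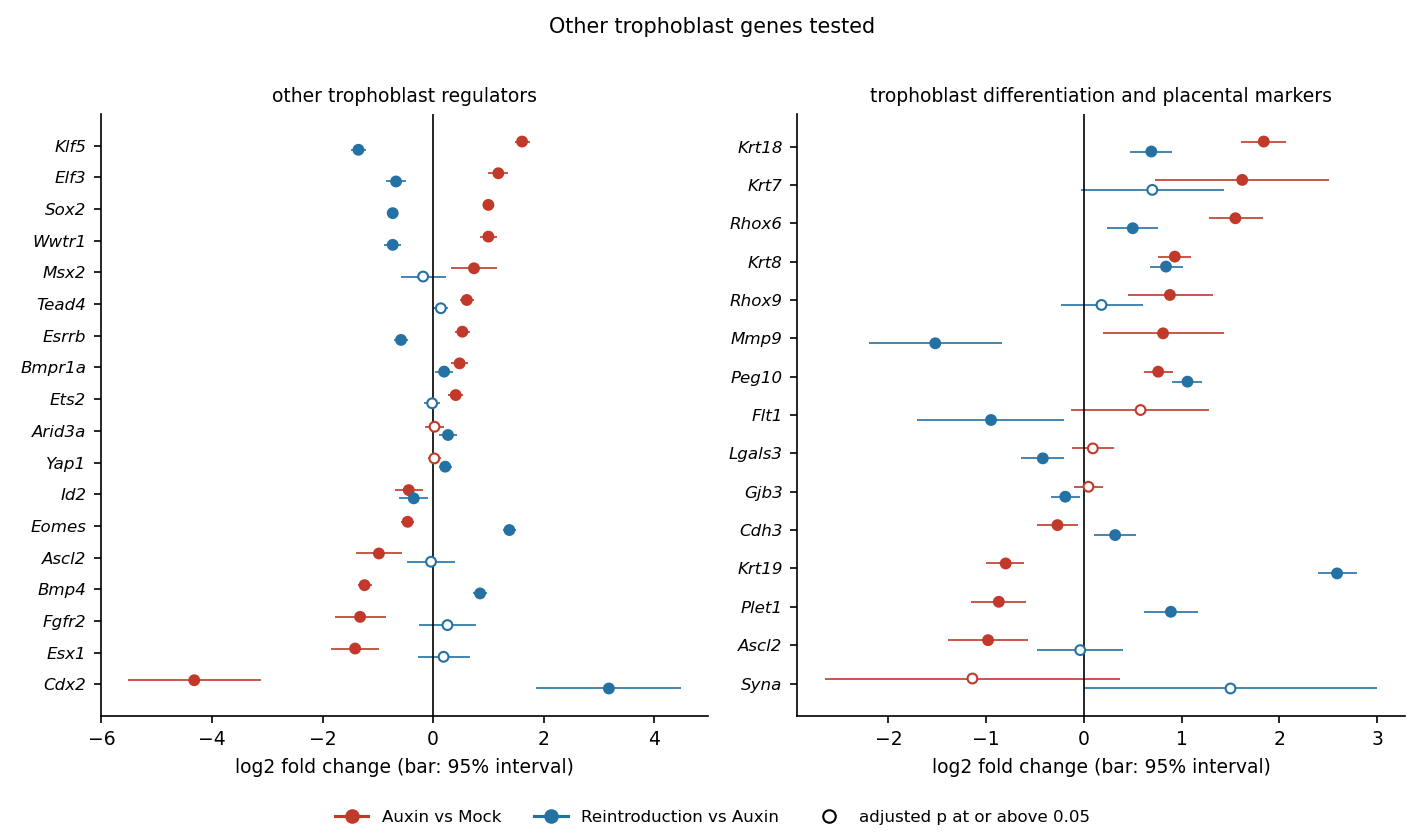
Log2 fold change (x axis) with 95% intervals of the 18 tested regulators (left) and the 15 tested differentiation and placental markers (right), in Auxin against Mock (red) and Reintroduction against Auxin (blue), with open circles where the adjusted p was at or above 0.05. Cdx2 lies at the bottom left with -4.32 and 3.18, and Krt18 at the top right with 1.84 and 0.69.

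Markers of other lineages moved as well, and their part in the members' changes was not tested. Their counts, too, stand beside the shares of all genes given above. Primitive endoderm markers rose in Auxin against Mock in 7 of 7 tested of 8 listed, and their summed level went from 6.02 to 7.53 CPM in Mock to 22.8 to 23.7 in Auxin and 14.3 to 16.1 in Reintroduction. Trophoblast markers without the members had 3 higher and 3 lower of 6 tested in Auxin against Mock. Their summed level was 59.9 to 65.9 CPM in Mock, 63.5 to 73.5 in Auxin and 140 to 142 in Reintroduction, with Tpbpa, Prl3d1 and Prl2c2 at 0. Most of the Reintroduction sum was Eomes, Krt8 and Krt18, with 66.9, 40.9 and 21.6 CPM on average. Cdx2 averaged 0.783 CPM there against 1.70 in Mock, and Plet1 10.3 against 10.2. Mesoderm markers without Hand1 had 1 higher and 1 lower of 4 tested in Auxin against Mock, and summed to 11.1 to 11.8, 2.76 to 3.21 and 3.84 to 5.37 CPM in the 3 groups. Most of the Mock sum was T (Brachyury), with 9.82, 0.255 and 1.36 CPM on average. Surface ectoderm and neural crest markers without Tfap2a had neither a rise nor a fall among 2 tested there and summed to 24.6 to 32.6, 26.9 to 28.4 and 22.7 to 25.1 CPM, nearly all of it Foxd3 (27.0 CPM on average in Auxin and 23.4 in Reintroduction). Fibroblast markers had 1 higher and 1 lower of 3 tested, with Twist2 at 0 throughout and Col3a1, Dcn and Lum at 0 in Auxin, and summed to 17.8 to 20.0, 39.1 to 46.4 and 37.4 to 38.8 CPM. Thy1, a surface protein, made up nearly all of that sum (17.9, 41.2 and 37.5 CPM on average), and Col1a1 fell by 1.47 on the log2 scale in Auxin against Mock (adjusted p = 5.99e-04).

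Genes whose levels followed each member most closely were named by Pearson's r of log2 CPM over the 9 libraries, among 11978 protein-coding genes that averaged 1 CPM or more. The points fall into 3 groups, so r mainly reflects the group means and is given as a description. The 3 nearest to Gata2 were Pik3c2b (0.948), Alg2 (0.945) and Spock2 (0.939). Those nearest to Gata3 were Apool (0.987), Rap2b (0.987) and Oasl1 (0.982), and to Hand1 Cplx1 (0.967), Nhlrc1 (0.966) and Zscan2 (0.959). For Tfap2a they were Rin1, Cdc42ep3 and Zdhhc2 (0.997 each). Zdhhc2, a palmitoyltransferase, averaged 3.47, 21.4 and 25.1 CPM in Mock, Auxin and Reintroduction. For Tfap2c they were Rhbdd2 (0.999), Inafm2 (0.998) and Acp2 (0.998), and Inafm2 averaged 1.56, 10.2 and 3.58 CPM.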

How the data were processed

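The members and gene lists were chosen with earlier results of these data known. The authors deposited raw counts per gene from featureCounts 2.0.6 over exons of an mm10 annotation, in paired-end mode with no strand setting and each mate counted as a read, per the file headers. The submitters' processing notes also list Trim Galore 0.6.10, FastQC 0.12.1, Bowtie2 2.5.3 and SAMtools 1.20, with no role given. Bowtie2 does not split reads across exon junctions, which would lower counts if it aligned to a genome; its reference is not given in the sources used here. The labels name no batch or date. Symbols were matched on gene identifiers without version (48058 of 48440 genes).

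Counts were fitted with edgeR 4.0.16 (filterByExpr, TMM, quasi-likelihood test, two-sided, group as the only term, 9 libraries) in R 4.3.3, and adjusted over 20838 genes by Benjamini-Hochberg. The test was tested on simulated data, in which far fewer genes were changed than were called here. The common biological coefficient of variation was 9.15%. CPM are counts scaled by TMM-adjusted library size. All 6 members, all tested relatives, Cdx2, Eomes, Tead4, Ets2 and the 4 genes of each other list with the smallest p in Auxin against Mock were named. Alternatives were DESeq2 1.42.0 size factors and Wald test, total counts, no filter, at least 1 CPM in 3 libraries, only the 2 groups compared, a replicate block, halved counts, removal of length and GC trends, and leaving out each library. A fold of at least 2 was added after seeing the data. Where a gene had 0 counts in a group, its fold was taken against 3 counts over the group. Such bounds and the 95% intervals of count ratios cover counting error only. The labels say biological replicates without naming separate cultures, so p-values measure the spread between these libraries.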

Additional observations from a re-analysis of the deposited data

How the results depend on the processing

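The 5 members kept their call in Auxin against Mock wherever they were tested without a fold requirement, and without any 1 library 5 were called each time. With a filter of at least 1 CPM in 3 libraries, 3 members were tested, and 3 were called both in that comparison and in Reintroduction against Mock. A fold of at least 2 left 6625, 2289 and 4664 genes called in Auxin against Mock, Reintroduction against Auxin and Reintroduction against Mock, with 4 members called in the first (Gata2 was lost), 0 in the second and 3 in the third. Leaving out 1 library gave 14381 to 16236, 9142 to 11581 and 13106 to 13465 genes, and 1 to 2 members in Reintroduction against Auxin (2 without Reintroduction replicate 1). In Reintroduction against Mock it gave 3 to 5 members, with 3 without Mock replicate 2, Mock replicate 3 or Reintroduction replicate 1. Total counts alone turned Tfap2a in Reintroduction against Auxin to -0.004; this scaling moved the median of all genes to 0.26, -0.077 and 0.16 and the higher share of calls from 52.4% to 63.3%, from 50.0% to 40.1% and from 50.9% to 59.9%. The cause was not tested. Same-numbered libraries had correlations of deviations from -0.17 to 0.055, and differently numbered ones from -0.18 to 0.24. No pairing by replicate number was seen. This could not exclude it, since deviations of 3 libraries around their group mean depend on each other. With the replicate block, 14808, 9829 and 13639 genes and 5, 1 and 4 members were called. Gata3, Hand1 and Elf5 had at most 49 counts in any library, which limits their precision.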

Other observations

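Among the listed marker genes, 3 with no place among the members moved far, and they were chosen after their values were seen. T (Brachyury), the T-box factor of early mesoderm, averaged 9.82 ± 0.310 CPM in Mock, 0.255 ± 0.127 in Auxin and 1.36 ± 0.157 in Reintroduction (SD, n = 3). Its log2 fold change was -5.23 in Auxin against Mock (edgeR quasi-likelihood, adjusted p = 2.95e-09) and 2.40 in Reintroduction against Auxin (adjusted p = 1.22e-05). This was the same order of groups as in Cdx2, with Mock highest and Auxin lowest. Krt19, a keratin of trophectoderm, averaged 6.91 ± 0.726, 3.96 ± 0.272 and 23.9 ± 0.471 CPM, with log2 fold changes of -0.80 (adjusted p = 7.48e-06) and 2.59 (adjusted p = 3.70e-09). Unlike Krt8 and Krt18, its Auxin libraries were below Mock and its Reintroduction libraries above both other groups. Peg10 reached 540 ± 21.9 CPM in Reintroduction, from 153 ± 11.1 in Mock and 259 ± 17.4 in Auxin.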
